A study of Mus musculus with 3 samples.

Results

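Among 21893 regions of open chromatin in cultured mouse hematopoietic stem cells (HSCs), 1079 regions, 4.93% of all, carried an ATAC-seq peak in AZD2014-treated and DMSO-treated cells and none in rapamycin-treated cells. They were chosen from the measured values themselves. Each of the 3 peak lists was first shortened to its highest scores, as many as the DMSO list, the shortest, holds, and overlapping peaks were merged into regions. Of the 14103 regions with a peak under both AZD2014 and DMSO, the 1079 made up 7.65%. In 916 of them (6.5% of the 14103) the whole rapamycin list held no peak either. In the other 163 it held one below the length limit. The lack of a kept rapamycin peak is therefore the definition of these regions, and counts of it are a description with no test.

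The kinase mTOR works in the complexes mTORC1 and mTORC2, which couple nutrient and growth factor signals to protein synthesis, autophagy and cell growth. Rapamycin binds FKBP12 and blocks mTORC1 allosterically, whereas AZD2014 (vistusertib) competes with ATP at the kinase and reaches both complexes. HSCs are the rare blood cells that renew themselves and give rise to all blood lineages, and mTOR activity is known to be held low in quiescent ones. ATAC-seq uses a transposase that inserts adapters into accessible DNA, so peaks mark promoters, enhancers and other open sites.

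The rapamycin library came from cells given 1 µM rapamycin, the AZD2014 library from cells given 200 nM AZD2014, and the DMSO library from cells given the solvent. All 3 came from HSCs of adult mice of the genotype Mx1-Cre-/-;mTORflox/flox that had received poly(I:C), an inducer of interferon. Without Cre the floxed mTOR gene stays intact, so cells of all groups, controls included, carried the floxed alleles and had seen poly(I:C) and culture. The drugs were used at different doses, and the length of treatment and the number of mice do not appear in the sources used here. With 1 library per condition there is no replicate check, no difference between the conditions could be tested, and the library and the treatment cannot be told apart. A weaker peak may reflect fewer cells with the site open or less opening per cell, which cannot be told apart in bulk cells.

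Sequences are given for the 250 bases before the transcription start at 5 regions (RefSeq, GRCm38.p6, read 5′ to 3′ on the strand of the gene). Of the gene-end regions named below, these are the 5 highest-ranked that covered a start and had no peak anywhere in the rapamycin list. The sequences are printed so that the promoters lacking a rapamycin peak can be read directly. Capitals mark matches, on either strand, to any of 12 short motifs spelled out with the promoter results.
Acp2 (chr2:91202662-91202911, plus strand): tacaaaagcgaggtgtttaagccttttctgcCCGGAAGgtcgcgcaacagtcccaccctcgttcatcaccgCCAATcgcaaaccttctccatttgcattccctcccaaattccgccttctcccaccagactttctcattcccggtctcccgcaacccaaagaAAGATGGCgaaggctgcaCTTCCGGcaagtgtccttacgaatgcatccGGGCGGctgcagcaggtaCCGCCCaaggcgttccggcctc
Reps2 (chrX:162643659-162643908, minus strand): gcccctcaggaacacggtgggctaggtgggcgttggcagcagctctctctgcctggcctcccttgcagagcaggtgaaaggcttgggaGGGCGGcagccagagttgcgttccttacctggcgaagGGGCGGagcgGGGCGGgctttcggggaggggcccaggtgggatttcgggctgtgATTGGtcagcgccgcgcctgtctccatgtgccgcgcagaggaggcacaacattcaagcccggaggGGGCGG
Ccdc137 (chr11:120457879-120458128, plus strand): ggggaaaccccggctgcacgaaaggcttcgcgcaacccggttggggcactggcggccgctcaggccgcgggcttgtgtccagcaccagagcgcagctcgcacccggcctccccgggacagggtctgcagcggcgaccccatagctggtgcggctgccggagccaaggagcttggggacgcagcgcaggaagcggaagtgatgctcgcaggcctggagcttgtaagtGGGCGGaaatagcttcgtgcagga
Mlkl (chr8:111338206-111338455, minus strand): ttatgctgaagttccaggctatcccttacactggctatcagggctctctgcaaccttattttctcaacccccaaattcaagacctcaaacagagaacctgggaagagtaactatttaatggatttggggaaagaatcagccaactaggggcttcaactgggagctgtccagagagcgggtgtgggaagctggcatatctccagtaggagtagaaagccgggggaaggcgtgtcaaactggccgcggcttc
Syngr1 (chr15:80091084-80091333, plus strand): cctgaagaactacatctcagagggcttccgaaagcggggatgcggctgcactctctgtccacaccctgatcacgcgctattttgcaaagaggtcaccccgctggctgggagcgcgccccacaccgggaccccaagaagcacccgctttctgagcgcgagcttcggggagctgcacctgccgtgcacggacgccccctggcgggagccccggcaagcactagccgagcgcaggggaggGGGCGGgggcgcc

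The Acp2 promoter held matches to the ETS motif starting 219 and 70 bases before the start, to the CCAAT box at 179, to the YY1 motif at 88 and to the GC box at 40 and 22. The Reps2 promoter held GC boxes starting 162, 125, 115 and 6 bases before the start and a CCAAT box on the other strand at 71. Ccdc137 and Syngr1 each held 1 GC box, 24 and 13 bases before the start. Mlkl held no match to any motif searched and had a GC content of 50.8%, against 57.2% to 68.8% in the other 4. A match describes letters and shows no binding.

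The whole rapamycin list held 18233 peaks, and that of AZD2014 21321, with lowest scores of 50 in both and 50.01 under DMSO. Shortening them to the DMSO length dropped 1044 rapamycin and 4132 AZD2014 peaks. In the shortened lists, 5 of 9 HSC marker genes carried a peak at an end (within 1 kb) under rapamycin, AZD2014 and DMSO alike, while Procr, Slamf1, Gata2 and Ptprc had none. In the whole lists Ptprc also had one under AZD2014. In the shortened lists the numbers under rapamycin, AZD2014 and DMSO were 6, 5 and 5 of 21 myeloid genes, 3 in each list of 15 mast cell and basophil genes, 7, 7 and 8 of 16 erythroid genes, and 5, 4 and 5 of 16 megakaryocyte genes. Of 15 B cell genes they were 4, 2 and 3, of 16 T cell genes 1 in each, and of 20 non-blood genes 2, 3 and 1. The part of other cell types in the results was not tested.

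The 1079 regions were weakly scored sites in both lists that held them. Their AZD2014 ranks ran from 6769 to the last kept rank, with a median of 14049, and their AZD2014 scores from 67.1 to 237 with a median of 90.0. Their DMSO ranks ran from 5788 to 17188, with a median of 13284, and their DMSO scores from 50.01 to 186 with a median of 70.3. Only 2 of the regions lay in the upper 50% of both lists, 49 in the upper 50% of at least 1, and 1030 in the lower 50% of both. The authors' scores were not shown to share a scale across lists, so they are set side by side here and no ratio is taken.

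The share of regions lacking a rapamycin peak grew toward the weak end of the DMSO list. With the DMSO list cut into 5 bands of rank, 0 of 3436 regions with AZD2014 and DMSO peaks lacked a rapamycin peak in the top band, and 5 of 3420 (0.146%) in the next. The share was 4.04% (133 of 3291; interval 3.42 to 4.77) in the middle band and 18.4% (462 of 2516; 16.9 to 19.9) in the fourth. In the lowest band it was 33.3% (479 of 1440; 30.9 to 35.7). These and later intervals are 95% Wilson intervals, which cover counting error only. Regions lacking only an AZD2014 peak, defined in the same way and numbering 820 (5.92% of 13844 regions with rapamycin and DMSO peaks), followed the same course. Their shares were 2.20% (1.75 to 2.76), 13.1% (11.8 to 14.5) and 31.1% (28.7 to 33.6) in the last 3 bands.

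**Figure D1:**
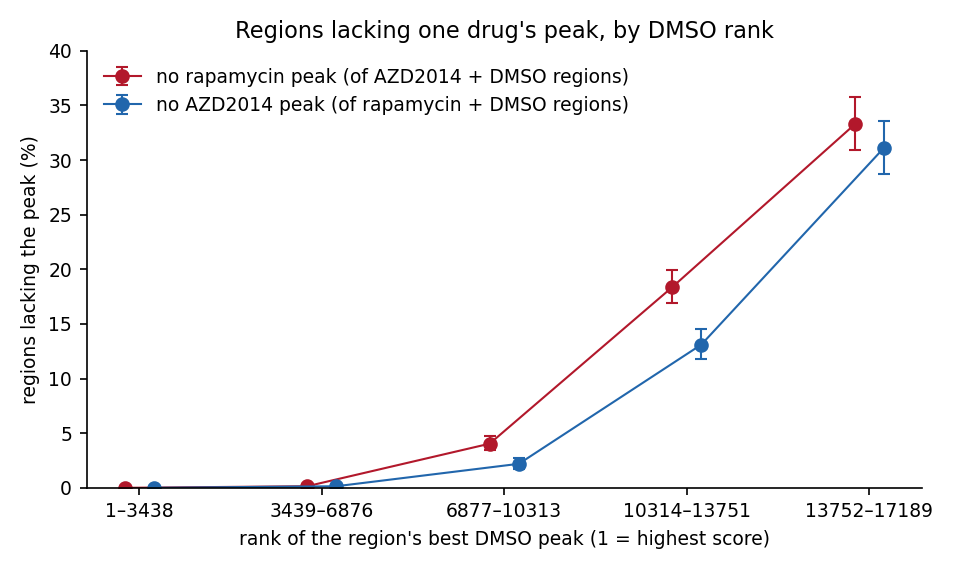
Share of regions lacking a peak under 1 drug alone (y axis, percent) by band of DMSO rank (x axis, strongest to weakest), for rapamycin beside AZD2014, with 95% Wilson intervals of counting error. Both shares climb with rank, to 33.3% for rapamycin and 31.1% for AZD2014 in the weakest band.

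Some memberships rested on the length limit. In the 163 regions with a rapamycin peak under the limit, that peak scored 50 to 53.6, with a median of 51.7, just outside the last kept rapamycin score of 53.69. Just inside it, 186 regions counted as present in all 3 lists owed this to a rapamycin peak among the last 1044 kept, with scores of 53.69 to 58.04. On the AZD2014 side, 542 regions with a DMSO peak alone had an AZD2014 peak below that list's last kept score of 67.12.

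By place, 257 of the regions (23.8%; interval 21.4 to 26.5) lay within 1 kb of either end of a protein-coding gene, called a gene end here because the gene table has no strand. Another 428 (39.7%; 36.8 to 42.6) lay inside a gene body and 394 (36.5%; 33.7 to 39.4) outside genes. Gene bodies were not divided into exons and introns. Of the 253 gene-end regions on chromosomes with promoter sequences, 148 covered a RefSeq transcription start. Regions lacking only an AZD2014 peak had a similar layout, with 20.9% (18.2 to 23.8) at gene ends, 42.4% in gene bodies and 36.7% outside genes. Regions with both drugs' peaks and no DMSO peak had 25.3%, 38.6% and 36.1%. Regions in all 3 lists lay mostly at gene ends, with 63.3% (62.4 to 64.1) there, 20.3% in gene bodies and 16.5% outside.

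To set regions of like DMSO rank beside each other, the regions found in all 3 lists were also weighted to the DMSO ranks of the 1079. The weighted shares were 36.4% at gene ends, 33.0% in gene bodies and 30.6% outside, so the 23.8% of the 1079 at gene ends stood below that of shared regions of like DMSO rank. The level of both shares depended on list length. With lists of 10000 peaks, 46.9% of 486 such regions lay at gene ends, against a weighted 64.1% of regions in all 3 lists. Rank in the AZD2014 list was not weighted. The 916 regions with no rapamycin peak at all had 24.0% at gene ends, 40.1% in gene bodies and 35.9% outside, and the 163 others 22.7%, 37.4% and 39.9%.

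**Figure D2:**
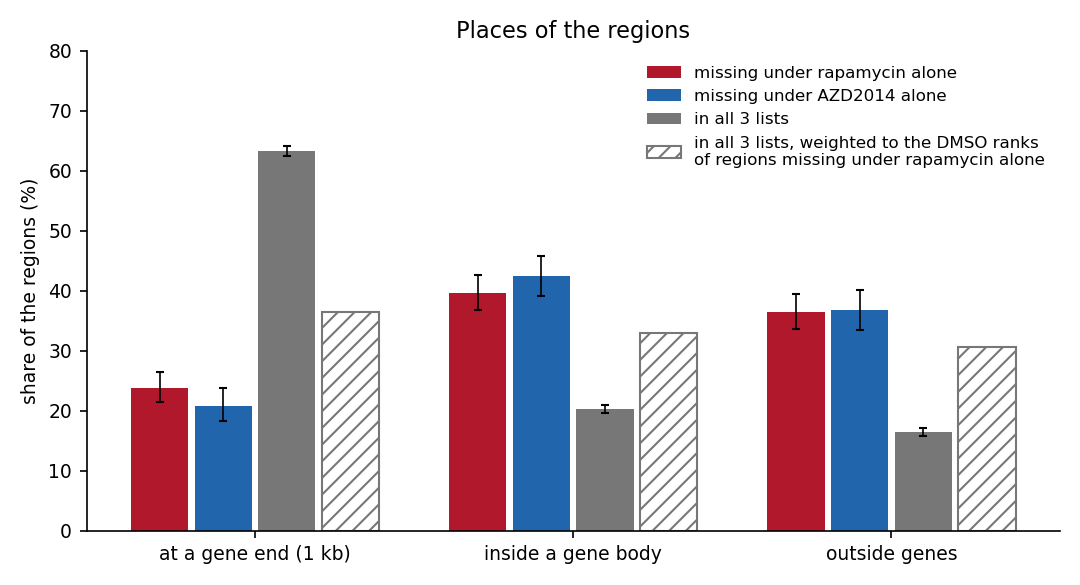
Share of regions (y axis, percent) at gene ends, in gene bodies and outside genes for each class of region, with 95% Wilson intervals where regions were counted. The regions missing under rapamycin alone stand at 23.8% at gene ends, against 63.3% of regions in all 3 lists and 36.4% of those weighted to the same DMSO ranks.

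The regions were narrow, and few had a kept rapamycin peak within 1 kb. Their median width was 611 bp, with quartiles of 535.5 and 709 bp, against 576.5 bp for regions lacking only an AZD2014 peak and 965.5 bp for regions in all 3 lists. Widths are of merged peaks, so regions in all 3 lists also include the span of their rapamycin peaks. Neither widths nor distances were weighted to DMSO rank. The median distance to the nearest kept rapamycin peak was 23.3 kb, with quartiles of 8.72 and 58.8 kb. It was 22.6 kb from the regions lacking only an AZD2014 peak to the nearest AZD2014 peak. A kept rapamycin peak lay within 1 kb of 42 regions (3.89%) and within 20 kb of 496 (46.0%). Another region of the same kind lay within 20 kb of 46 (4.26%), against 34 (4.15%) of the regions lacking only an AZD2014 peak.

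Of 21887 protein-coding genes, 1417 (6.47%) had one of the regions within 20 kb and 299 (1.37%) had one at a gene end. For regions lacking only an AZD2014 peak the numbers were 1005 (4.59%) and 189 (0.864%). Another 212 of the 1079 regions had no protein-coding gene within 20 kb. Among the genes, 1355 had 1 such region, 59 had 2 and 3 had more. Of 252 genes with a region at a gene end that was absent from the whole rapamycin list, 56 kept another rapamycin peak at a gene end, 196 did not, and 62 had no rapamycin peak in their whole window.

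The 15 gene-end regions with the lowest mean of AZD2014 and DMSO ranks included 11 that covered the start of the gene and 5 with a rapamycin peak below the limit. Those 5 belonged to Dusp22, a dual-specificity phosphatase, Usp51, a deubiquitinase acting on histone H2A, Bdp1, a subunit of the RNA polymerase III factor TFIIIB, the histone H3 gene H3c8 and Epb41l5, a FERM domain protein. At Dusp22 (chr13:30659721-30660617) the peak scored 50.9 under rapamycin, 168 under AZD2014 and 173 under DMSO. The scores at Usp51 were 51.4 under rapamycin, 198.9 under AZD2014 and 116 under DMSO. Bdp1 had 53.4 under rapamycin, 199.8 under AZD2014 and 114 under DMSO, and so lay just outside the limit. H3c8 scored 53.2, 133 and 133, and Epb41l5 53.4, 108 and 157, in the same order.

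The other 10 regions had no rapamycin peak even in the whole list. Acp2 (chr2:91202449-91203119), a lysosomal acid phosphatase, scored 164 under AZD2014 and 130.1 under DMSO, and the nearest rapamycin peak lay 18.4 kb away. The same region touches an end of Nr1h3, which encodes the sterol-sensing receptor LXR alpha. Gnptg, a subunit of the enzyme that tags lysosomal proteins with mannose 6-phosphate, scored 174 under AZD2014 and 87.8 under DMSO. Mlkl (chr8:111337438-111338691), the executor of necroptosis, scored 126 under AZD2014 and 124 under DMSO, with the nearest rapamycin peak 24.3 kb away. The Mlkl window kept 2 rapamycin, 2 AZD2014 and 3 DMSO peaks. Nfkb1 (chr3:135690813-135691936), the p105 and p50 subunit of NF-kB, scored 153 under AZD2014 and 138 under DMSO. A rapamycin peak stood 4.24 kb from the Nfkb1 region, so that gene was not without rapamycin peaks nearby.

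Reps2 (chrX:162643220-162643900), an adaptor of endocytosis, scored 182 under AZD2014 and 112 under DMSO and had no rapamycin peak within 91.5 kb. Rtl8b (chrX:53670017-53670845), a gene derived from a retrotransposon, scored 187 under AZD2014 and 82.6 under DMSO, with the nearest rapamycin peak 25.97 kb away. Both genes had 1 peak in their 20 kb window under AZD2014 and under DMSO and 0 under rapamycin. The region shared by Ccdc137 and Oxld1, which covered both starts, scored 129 under AZD2014 and 138 under DMSO. Fah, the last enzyme of tyrosine breakdown, scored 161 under AZD2014 and 91.0 under DMSO. Syngr1, a synaptic vesicle protein, had 139 under AZD2014 and 108 under DMSO. Pigv, an enzyme of GPI anchor synthesis, had 165 under AZD2014 and 123 under DMSO and kept another rapamycin peak at a gene end. The Pigv region lay at the end away from the start, with its centre 12.7 kb from the RefSeq start.

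**Figure D3:**
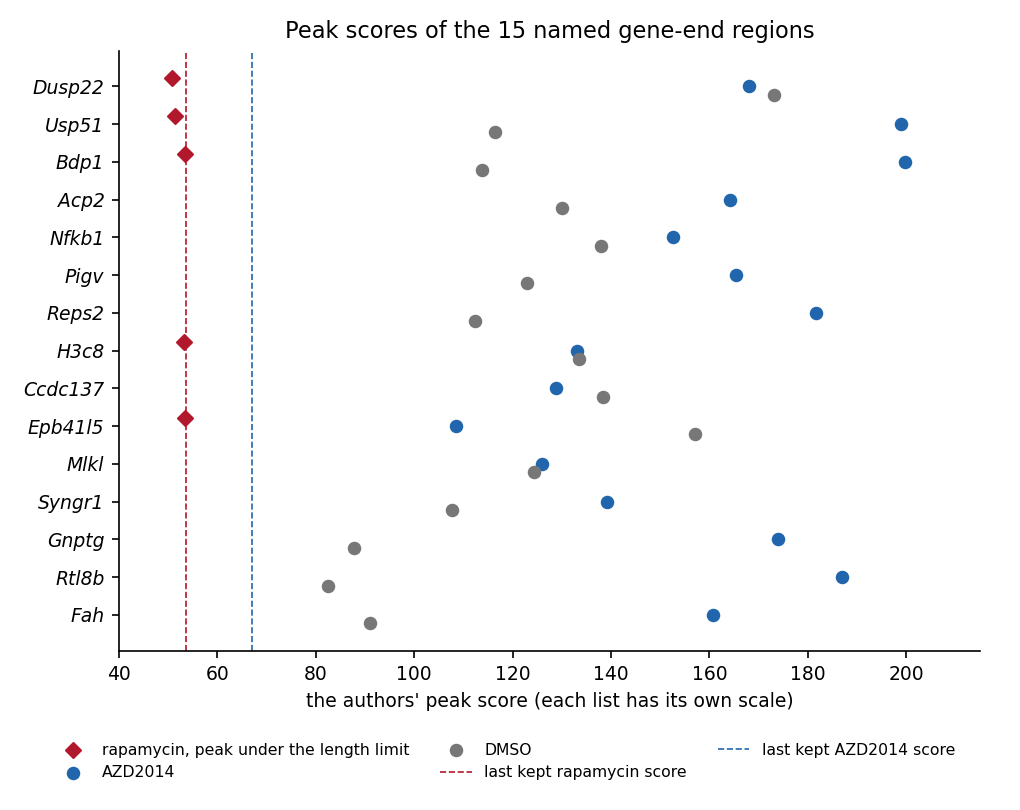
The authors' peak score (x axis, each list on its own scale) at the 15 gene-end regions (rows), with diamonds for a rapamycin peak under the length limit, circles for AZD2014 and DMSO, and dashed lines at the last kept rapamycin and AZD2014 scores. The 5 rapamycin diamonds sit between 50.9 and 53.4, left of the limit of 53.69, and the other 10 rows have none.

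Of the 8 gene body regions ranked highest, 3 held a rapamycin peak below the limit, in Nrxn3 (52.4), Sox6 (51.9) and Tmem132c (53.5). Sox6 is a transcription factor known for silencing embryonic globin in red cells, and its region scored 135 under AZD2014 and 138 under DMSO. The other 5 lay in Ptpn13, Armc9, Gcnt2, Cd1d1 and Gtf2ird1. The region in Gcnt2 (chr13:40908953-40909617), which encodes a glycan-branching enzyme, had the highest DMSO score of all 1079, 186, with 108 under AZD2014. Cd1d1 (chr3:86998500-86999561), which presents lipids to natural killer T cells, scored 185 under AZD2014 and 104 under DMSO, with no rapamycin peak within 77.5 kb. Ptpn13, a tyrosine phosphatase, scored 132 under AZD2014 and 153 under DMSO, with none within 55.5 kb. Ptpn13 did have a rapamycin peak at a gene end, and its window kept 1 rapamycin, 2 AZD2014 and 2 DMSO peaks.

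Outside genes, 4 of the 6 highest-ranked regions that had a protein-coding gene within 20 kb held a rapamycin peak below the limit. Their nearest genes were Ltf, which encodes the granule protein lactoferrin, Zfp36l1, a factor that speeds decay of AU-rich mRNAs, Klrb1c, the NK1.1 receptor, and Rtn4r, the Nogo receptor. The region 3.34 kb from Ltf (chr9:111046102-111046785) scored 53.5 under rapamycin, 181 under AZD2014 and 130.4 under DMSO. The region 19.4 kb from Zfp36l1 scored 51.9 under rapamycin, 185 under AZD2014 and 125 under DMSO. The 2 without one lay 2.28 kb from Gcnt1, another glycan-branching enzyme (184 under AZD2014 and 88.4 under DMSO), and 2.03 kb from Nkain1 (153 under AZD2014 and 93.2 under DMSO).

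Genes of 19 lists, chosen for HSCs, mTOR signalling and the other blood lineages, were then set beside these regions. Of 432 distinct listed genes in the gene table, 49 (11.3%) had one of the regions within 20 kb and 14 (3.24%) had one at a gene end, against 6.47% and 1.37% of all protein-coding genes. Listed genes were not matched to other genes for their number of peaks. No such total was taken for regions lacking only an AZD2014 peak, so these shares are not read as particular to rapamycin. By list the 2 kinds of region differed in both directions. Within 20 kb of a region lacking only a rapamycin or only an AZD2014 peak lay 8 and 5 HSC transcription factor genes, and 2 and 4 mTOR pathway genes. Near HSC transcription factor genes, 7 of 61 regions with AZD2014 and DMSO peaks lacked a rapamycin peak (11.5%; 5.67 to 21.8), against the 7.65% of all such regions. Near mTOR pathway genes 2 of 70 did (2.86%), near Pik3cd, a PI3-kinase subunit, and Rptor, which encodes the mTORC1 scaffold Raptor. Near genes of autophagy and lysosomes 1 of 45 did, near Ctsb, the protease cathepsin B. The interval of every list but one spanned 7.65%. The exception was the non-blood list, with 3 of 11 (27.3%; 9.75 to 56.6), near Cdh5 and Pecam1, both of endothelium, and Myod1 of muscle. The region near Myod1 lay 17.3 kb from that gene and covered the start of another gene, Kcnc1. With 19 lists set side by side, the non-blood interval is given as a value and no list is called apart from the rest.

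**Figure D4:**
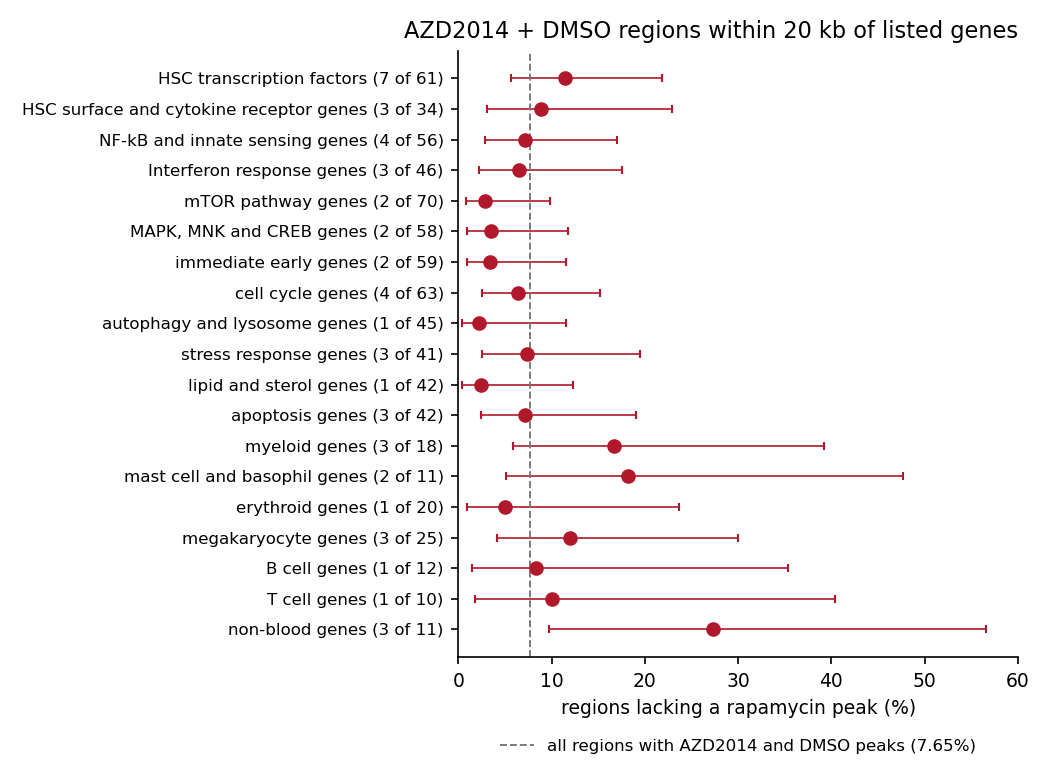
Share of regions with AZD2014 and DMSO peaks within 20 kb of the genes of each list that lack a rapamycin peak (x axis, percent), with 95% Wilson intervals of counting error and the counts in brackets. The dashed line marks 7.65%, the share over all such regions, and the non-blood interval alone lies to its right.

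The 7 regions by HSC transcription factors lay by 8 of 34 genes. The region at Hoxa9 (chr6:52221320-52222223), a homeobox gene of HSC self-renewal, scored 80.1 under AZD2014 and 72.9 under DMSO. It lay past the end of Hoxa9 away from the start, with its centre 5.60 kb from the RefSeq start. The region also fell in the windows of Hoxa5 and Hoxa10, and a rapamycin peak lay 7.80 kb from it. Prdm16, a zinc finger factor needed to maintain HSCs, had a gene-end region (chr4:154635491-154636710) that scored 149 under AZD2014 and 58.2 under DMSO, with no rapamycin peak within 62.4 kb. The Prdm16 window kept 1 rapamycin peak and 1 AZD2014 peak, against 2 DMSO peaks. The whole AZD2014 list held 4 peaks there and the whole rapamycin list 1. Klf12 is a Krüppel-like repressor, and its gene-end region (chr14:100284334-100285282) scored 91.4 under AZD2014 and 135 under DMSO. A second of the regions lay in the Klf12 gene body. The Klf12 window held 0 rapamycin peaks, against 4 kept AZD2014 and 2 DMSO peaks. The other regions lay near Bmi1, a Polycomb gene (7.11 kb away), and near Ldb1 (16.5 kb) and Tal1 (7.79 kb), subunits of one blood transcription complex. The region near Bmi1 lay at a gene end of Spag6, and Bmi1 itself had a gene-end peak in all 3 whole lists. Tal1 kept 3 rapamycin peaks in its window, against 2 AZD2014 and 3 DMSO peaks.

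Of the 14 genes with a gene-end region, 3 were on the list of NF-kB and innate sensing genes (Nfkb1, Rela and Mlkl) and 3 on the list of interferon response genes. Rela, the p65 subunit of NF-kB, scored 74.98 under AZD2014 and 55.9 under DMSO, and had another gene-end rapamycin peak. The Rela region lay past the end of the gene away from the start, with its centre 11.4 kb from the RefSeq start. Ifit2, an interferon-induced antiviral gene, had a region over its start (chr19:34550296-34551232) that scored 124 under AZD2014 and 50.7 under DMSO. That was the 1 peak in the Ifit2 window under AZD2014 and under DMSO, against 0 under rapamycin. The DMSO peak at Ifit2, of rank 17038, scored just above the lowest DMSO score of 50.01, so the DMSO count rests on a marginal peak. Oas1a, an interferon-induced sensor of double-stranded RNA, scored 52.6 under rapamycin, 118 under AZD2014 and 106 under DMSO. Irf2, a repressor of interferon genes, scored 121 under AZD2014 and 107 under DMSO at a gene end, and a rapamycin peak stood 0.506 kb away. Near interferon genes 3 of 46 regions lacked a rapamycin peak, and near NF-kB and innate sensing genes 4 of 56, with intervals that include the 7.65% of all regions.

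Among the other listed genes with a gene-end region, Trib3, a pseudokinase of the stress response, scored 93.4 under AZD2014 and 99.5 under DMSO at its start. Trp53, the p53 tumour suppressor, scored 74.0 under AZD2014 and 63.5 under DMSO, and a rapamycin peak lay 0.167 kb away. Zfp36, which encodes the mRNA decay factor tristetraprolin, scored 80.3 under AZD2014 and 53.3 under DMSO, with a rapamycin peak 1.01 kb away. Fcer1g, the signalling chain of Fc receptors, scored 80.04 under AZD2014 and 60.4 under DMSO. For Trp53, Irf2 and Zfp36 the missing peak thus lay beside a rapamycin peak, and the windows of Trp53 and Zfp36 kept 3 and 4 rapamycin peaks.

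The remaining lists are set beside the same 7.65% of all regions, which every interval included. Among cell cycle genes, 4 of 63 regions (6.35%) lacked a rapamycin peak, near Ccnd1, which encodes cyclin D1, Cdk6, a kinase that cyclin D1 activates, the phosphatase gene Cdc25a and E2f2. Near HSC surface and cytokine receptor genes 3 of 34 (8.82%) did, by Flt3, Itga6 and Slamf1. For MAPK, MNK and CREB genes the count was 2 of 58 (3.45%), for immediate early genes 2 of 59 (3.39%), for stress response genes 3 of 41 (7.32%), for lipid and sterol genes 1 of 42 (2.38%) and for apoptosis genes 3 of 42 (7.14%). Markers of mature lineages were counted in the same way. Myeloid genes had 3 of 18 (16.7%; 5.84 to 39.2), near Cebpb, Fcgr3 and Ltf. Mast cell and basophil genes had 2 of 11 (18.2%; 5.14 to 47.7), near Fcer1g and Srgn, and megakaryocyte genes 3 of 25 (12%; 4.17 to 29.96), near Itgb3, Tubb1 and Vwf. Near erythroid genes 1 of 20 (5%) lacked a rapamycin peak, near B cell genes 1 of 12 (8.33%) and near T cell genes 1 of 10 (10%). Whether a change in the mix of cells bears on these counts was not tested.

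Only 3 genes had 3 or more of the regions in their window. Pde4d, a phosphodiesterase that breaks down cyclic AMP, had 4, in a window that kept 9 peaks under rapamycin, 11 under AZD2014 and 12 under DMSO. Cracd, which encodes an inhibitor of actin capping, had 3 and no rapamycin peak in its window even in the whole list. The Cracd regions scored 70.8, 115.6 and 70.6 under AZD2014 and 72.9, 71.7 and 94.1 under DMSO. Irgm2 had 3, of which one (chr11:58214667-58215182) covered its own start (104 under AZD2014, 94.0 under DMSO) and one the start of its neighbour Igtp (114 under AZD2014, 62.4 under DMSO). The third scored 50.8 under rapamycin, 70.7 under AZD2014 and 53.3 under DMSO. A kept rapamycin peak of score 73.2 lay in the Irgm2 window too.

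Irgm2 and Igtp are GTPases induced by interferon that act against parasites and bacteria within cells. Their family was counted after these values were seen, so the count is a description. Of 16 interferon-inducible GTPase genes, 5 had one of the regions within 20 kb (Gbp4, Gbp9, Gbp10, Igtp and Irgm2), with 6 distinct regions, and 1 had a region lacking only an AZD2014 peak. Over all protein-coding genes the shares were 6.47% and 4.59%, and since the family was picked for its values, nothing is read from the difference. At Gbp4 the regions scored 82.3 and 139.6 under AZD2014 and 56.3 and 55.4 under DMSO, and 0 rapamycin peaks lay in the window. The Gbp10 region scored 51.8 under rapamycin, 122 under AZD2014 and 60.7 under DMSO. Other members of the family had rapamycin peaks. Gbp3 and Gbp7 had a gene-end peak in all 3 lists, Irgm1 had one under rapamycin and AZD2014 and none under DMSO, and Gbp2 had 1 rapamycin peak in its window, against 0 under AZD2014 and 0 under DMSO.

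**Figure D5:**
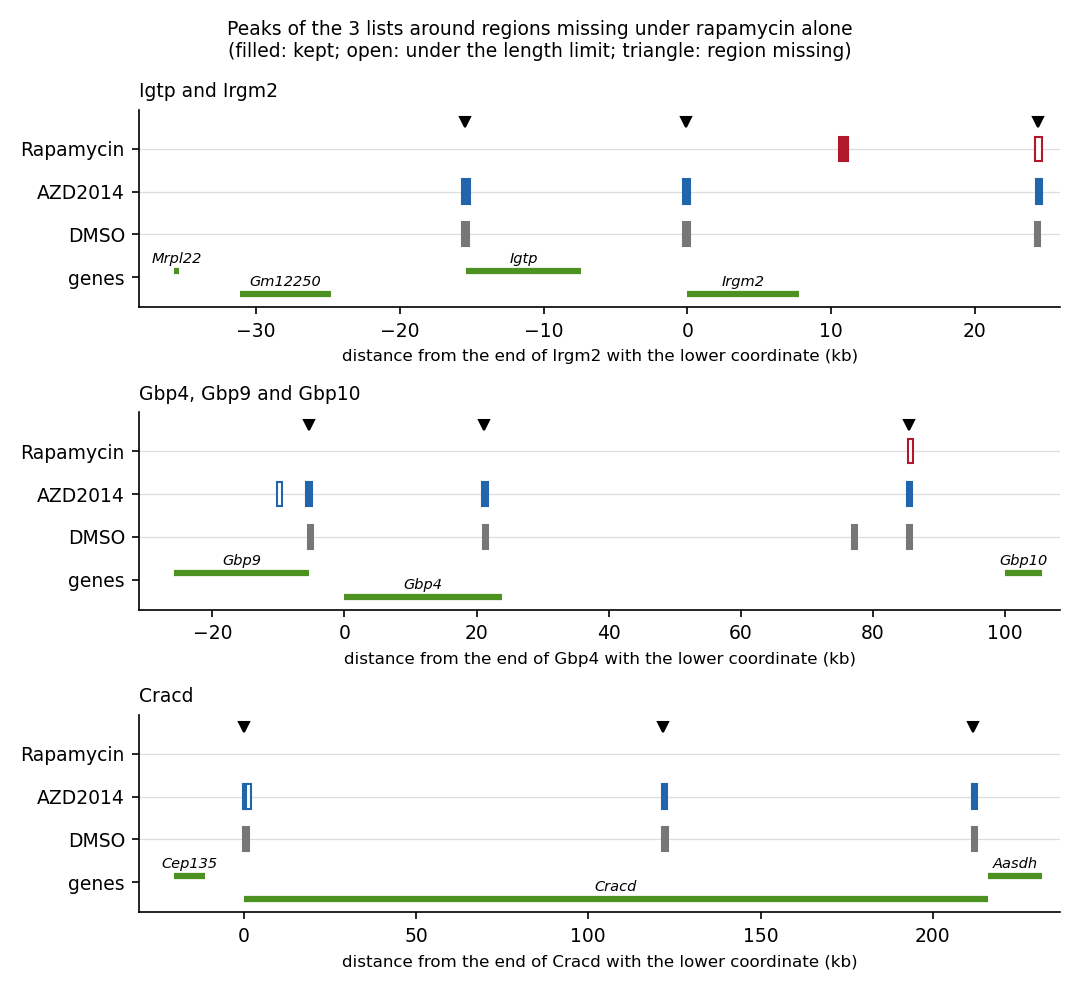
Peaks of the 3 lists (filled if kept, open if under the length limit) at Igtp and Irgm2, at Gbp4, Gbp9 and Gbp10, and at Cracd, by distance in kb (x axis) from the end of the named gene with the lower coordinate, with triangles over the regions missing under rapamycin alone and genes as green bars. The Cracd panel has no rapamycin peak, and the Irgm2 panel has 1 kept rapamycin peak, 10.6 to 11.2 kb along.

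Of 1060 regions on chromosomes with RefSeq promoter sequences, 174 (16.4%; 14.3 to 18.8) covered a transcription start, with 4 of them covering starts on both strands. They covered 193 promoter windows, each of 250 bases before and 50 bases after the start. The same share was 14.8% for regions lacking only an AZD2014 peak, and 55.9% for regions in all 3 lists or 28.9% when weighted to the DMSO ranks of the 1079. GC content averaged 60.4% in the 193 windows, against 60.6% in the 128 of regions lacking only an AZD2014 peak, 61.2% in those of regions in all 3 lists after weighting and 56.2% over 21263 windows. CpG pairs averaged 6.42 per 100 bases, against 6.05, 6.996 and 5.13 in the same order.

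For each of 12 motifs, both strands were searched and no motif contains another. The ETS motif CCGGAAG, bound by ETS factors such as GABP, was in 19.7% of the 193 windows (interval 14.7 to 25.9), against 17.4% of the weighted windows in all 3 lists and 11.6% of all promoters. The GC box GGGCGG of SP and KLF factors was in 67.4%, against 64.9% and 46.2% in the same order. The CCAAT box CCAAT was in 27.5% (21.7 to 34.2), against 31.4% and 38.2%. The RUNX motif TGTGGT was in 15.5%, against 12.5% and 14.97%. The E-box CACGTG of Myc and TFE factors was in 9.84%, against 13.0% and 7.84%. The interferon element GAAANNGAA was in 7.25%, against 7.02% and 8.15%, and the GATA motif AGATAA in 6.74%, against 5.80% and 9.65%.

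The rarer motifs stood in few windows. The YY1 motif AAGATGGC was in 3.63%, against 3.89% and 3.05%, and the AP-1 motif TGANTCA in 3.11%, against 4.63% and 6.99%. The CREB motif TGACGTCA was in 2.07%, against 3.01% and 2.23%, the NF-kB motif GGGANTTTC in 1.55%, against 1.06% and 1.08%, and the NRF1 motif GCGCATGCG in 1.04%, against 3.25% and 2.35%. For ETS and CCAAT the weighted share of regions in all 3 lists lay inside the interval of the 193, so a difference from other weak promoters was not detectable with this number of windows.

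Of 1005 miRNA hairpin genes, 36 (3.58%) lay within 20 kb of 33 of the regions. One region (chr11:78080147-78080842) lay near the cluster of Mir144 and Mir451a, miRNAs known for their abundance in red cells, and scored 127 under AZD2014 and 60.1 under DMSO. The Hoxa9 region lay 7.86 kb from Mir196b, a miRNA of the Hoxa cluster. The mature forms, from RefSeq on GRCm38.p6 and shown because they name the miRNAs that these regions neighbour, carry their seeds (bases 2 to 8) in capitals and share none.
miR-451a: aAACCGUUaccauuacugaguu
miR-144-3p: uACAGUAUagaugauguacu
miR-196b-5p: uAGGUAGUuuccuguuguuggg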

How the data were processed

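ATAC-seq of HSCs gave 1 peak list per library. Per the labels' protocols, 50000 cells were transposed for 30 min at 37 °C. The submitters' processing notes name CASAVA and the build mm10. The aligner, peak caller settings and any read shift are not stated in those sources, and depth is unknown. The authors deposited peaks with a score per peak, used here only to rank peaks within a list and to describe them.

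The members, the gene lists and the motifs were chosen with earlier results of these data known. Lists were shortened to the number of DMSO peaks (ties by width, then position), and peaks overlapping by 1 bp were merged. Genes were placed with the RefSeq GRCm38.p6 table, and 432 of 434 listed genes matched. Named regions were the 15 gene-end, 8 gene body and 6 outside regions of lowest mean rank that met the following limits. Gene-end regions were taken 1 per gene, without names starting with Gm or ending in Rik. Outside regions needed a protein-coding gene within 20 kb. Genes with 3 or more regions, and listed genes with a region at a gene end, were named too. Other listed genes near a region were added in the lists' counts, and the GTPase genes after values were seen. Groups came from the sample titles. Alternatives changed the list length, the overlap, the peak width, the gene end and the gene window. Overlaps were checked on simulated data, altered copies of the DMSO list, where 200 of 200 removed peaks were found. Python 3.11.15, numpy 2.4.6, pandas 2.3.3, scipy 1.17.1, statsmodels 0.14.6 and matplotlib 3.10.9 were used.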

Additional observations from a re-analysis of the deposited data

How the results depend on the processing

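Of 95 alternative values, 66 lay within 1.5 times the reported count or inside the 95% interval of the reported share or median, and 29 did not. Counts inside that range still varied, with 788 regions at lists of 15000 and 1407 with full lists. With lists of 15000 peaks, 425 regions had no peak in the whole rapamycin list, the gene-end share was 27.7%, the median width 660 bp and the median distance to a rapamycin peak 26220 bp. With lists of 10000 there were 486 regions, 10 of them absent from the whole rapamycin list, with 46.9% at gene ends, 29.6% in gene bodies and 23.5% outside, 806 genes, 24 listed genes, a width of 798 bp and a distance of 35596 bp. The gene-end share then differed from the weighted share of regions in all 3 lists by -17.2 percentage points, against -12.6 as reported, -14.1 with lists of 15000 and -11.1 with full lists, settings chosen for this comparison after seeing the data. With full lists, all 1407 regions had no rapamycin peak by construction, the width was 580 bp and the distance 20223 bp. With peaks set to 200 bp the gene-end share was 28.3%, the width 249 bp and the distance 16063.5 bp. A reciprocal overlap gave a distance of 20762 bp. Gene ends of 500 bp gave 21.0%, and of 2500 bp 30.1% with 35.9% in gene bodies. Windows of 50 kb gave 2342 genes and 80 listed genes, windows of 5 kb 826 genes, and gene bodies alone 650 genes and 28 listed genes. No paired analysis was possible because each condition had 1 library. Which regions belong thus rests on the list length, and weak peaks cannot be judged further because read depth is unknown.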

Other observations

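By chromosome, the share of regions with AZD2014 and DMSO peaks that lacked a rapamycin peak is given for the highest 2 and the lowest of the numbered chromosomes, against 7.65% over all. It was 10.4% on chromosome 13 (63 of 606; interval 8.21 to 13.1), 9.89% on chromosome 1 (83 of 839; 8.05 to 12.1) and 4.36% on chromosome 19 (18 of 413; 2.77 to 6.78). The share lacking only an AZD2014 peak was 6.06%, 7.13% and 5.28% on the same chromosomes, against 5.92% over all. These chromosomes were picked for their values, and nothing is read from the differences. On chromosome Y 1 of 7 regions lacked a rapamycin peak, and that region, at 5611 bp, was the widest of all 1079.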
